A study of Homo sapiens with 6 samples.

Results

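The 9 mature miRNAs described here are the epithelial miR-200 family with miR-205 and miR-203: hsa-miR-200a-3p, hsa-miR-200b-3p and hsa-miR-429 of a cluster on chromosome 1, hsa-miR-200c-3p and hsa-miR-141-3p of a cluster on chromosome 12, hsa-miR-205-5p, hsa-miR-203a-3p, and the opposite strands hsa-miR-200a-5p and hsa-miR-200b-5p. The species prefix is left out below. They were chosen by name, not by value, from 1727 known mature miRNA names. All 9 had counts in each of 6 small RNA libraries, and all 9 were among the 668 names with enough counts to be tested. The libraries came from BEAS-2B, an established immortalised line of human bronchial epithelial cells. The cells of 3 libraries, the controls, had received pcDNA3.1, an empty plasmid, and those of the other 3 had received pcDNA-PRMT1, which expresses the protein arginine methyltransferase PRMT1, in both cases for 48 h. The question is which miRNAs change when PRMT1 is over-expressed. PRMT1 itself was not analysed here. Separate cultures are not mentioned in the labels, so the spread behind each p-value is that of these libraries and may be technical. Libraries held 23.95 M to 25.79 M counts in all, of which 11.54 M to 16.42 M were counts of known miRNAs.

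The miR-200 family holds epithelial cells in their state by repressing the transcription factors ZEB1 and ZEB2, which silence E-cadherin and other epithelial genes. ZEB1 and ZEB2 in turn repress both miR-200 clusters, so that the miRNAs and the factors oppose each other during epithelial-mesenchymal transition (EMT). MiR-205 acts on the same factors and is typical of basal and squamous epithelium, and miR-203 restrains the basal regulator p63 in stratified epithelium. A miRNA finds its targets mainly through its seed, here bases 2 to 8 counted from the 5′ end.

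The sequences are shown to make clear which names share a seed and how little separates the names of the 2 clusters. They are from RefSeq (GRCh38.p14), which held all 9, and the seed is in capitals.
miR-200b-3p: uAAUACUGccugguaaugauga
miR-200c-3p: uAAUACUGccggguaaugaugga
miR-429: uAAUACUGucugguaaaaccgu
miR-200a-3p: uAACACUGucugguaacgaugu
miR-141-3p: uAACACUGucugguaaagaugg
miR-200a-5p: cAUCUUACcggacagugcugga
miR-200b-5p: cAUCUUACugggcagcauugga
miR-205-5p: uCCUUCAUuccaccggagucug
miR-203a-3p: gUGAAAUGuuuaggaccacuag
The first 3 share one seed, and miR-200a-3p and miR-141-3p share another, so each seed is made by both clusters. The 2 seeds differ at base 4 (C4U from miR-200a-3p to miR-200b-3p). The opposite strands of miR-200a and miR-200b share a further seed. Of the 2370 mature names in that table, 0 others had the same bases 2 to 8 as any of the 9.

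Counted from the 5′ end, miR-200b-3p and miR-200c-3p differed at 2 of 22 compared bases (U11G and A22G), and miR-200c-3p has 1 further base. MiR-200a-3p and miR-141-3p also differed at 2 of 22 bases (C17A and U22G). Within the chromosome 1 cluster, miR-200b-3p and miR-429 differed at 6 bases and miR-200a-3p and miR-200b-3p at 4. How reads that fit 2 such names were divided was not given in the sources used here, so the levels of these near-identical names are uncertain to that extent.

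The hairpins lie close together in each cluster (GENCODE 29, GRCh38, all on the plus strand). On chromosome 1, MIR200B lies at 1167104 to 1167198, MIR200A at 1167863 to 1167952 and MIR429 at 1169005 to 1169087, a span of 1984 bases that no other annotated gene contains. On chromosome 12, MIR200C at 6963699 to 6963766 and MIR141 at 6964097 to 6964191 lie within an intron of the long non-coding RNA MIR200CHG, a span of 493 bases. MIR205, on chromosome 1 at 209432133 to 209432242, lies within its host MIR205HG and overlaps an exon of it in part. MIR203A, on chromosome 14 at 104117405 to 104117514, is overlapped on the minus strand by MIR203B at 104117418 to 104117503.

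BEAS-2B libraries carried the chromosome 1 cluster at a high level and the chromosome 12 cluster, miR-205 and miR-203a at low levels, in both groups. Levels are in CPM, the counts of a name in every 1000000 counts of known miRNAs, after scaling between libraries with TMM factors. The 9 mature sequences are 22 or 23 bases long, so counts were not corrected for length. How evenly different names were captured was not measured, so orders and ratios between names are those of counts. Summed over its 3 guide strands, the strands that act on targets, the chromosome 1 cluster stood at 9072, 10001 and 7679 CPM in control libraries 1 to 3 and at 8188, 7920 and 8800 CPM in PRMT1 libraries 1 to 3. The chromosome 12 cluster stood at 67.9, 76.6 and 60.9 CPM in control and 72.8, 67.2 and 66.9 CPM in PRMT1 libraries. Within each library, counts of the chromosome 1 cluster were 112 to 134 times those of the chromosome 12 cluster. All 9 names together took 0.786% to 1.06% of known miRNA counts.

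**Figure D1:**
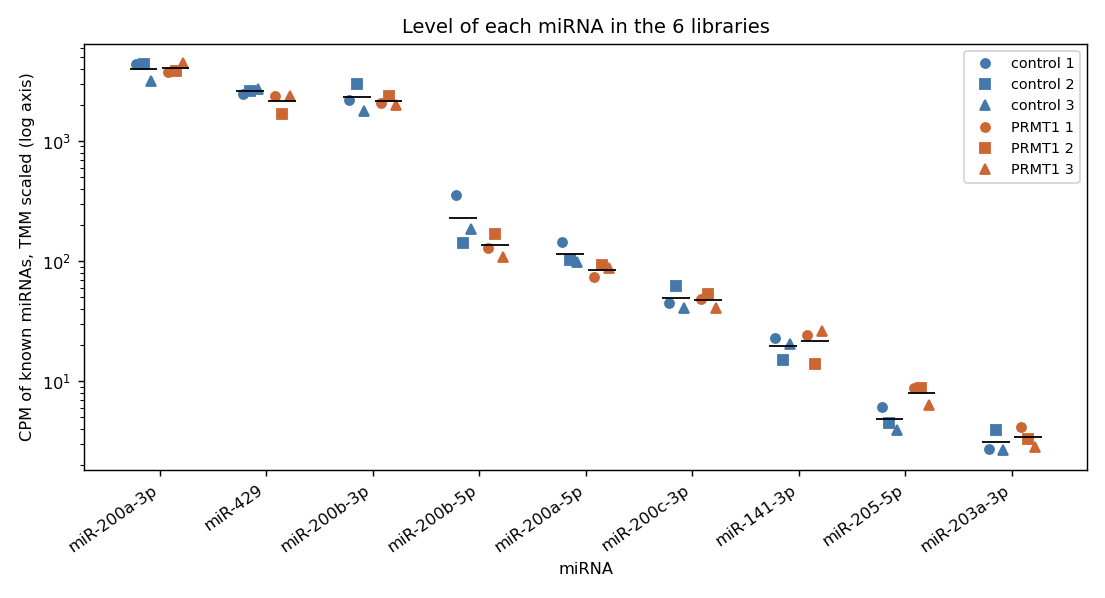
Level of each of the 9 miRNAs in CPM of known miRNAs (log axis) by library, with control libraries in blue, PRMT1 libraries in orange, the replicate number given by the symbol and group means as black lines. The 3 guide strands of the chromosome 1 cluster lie above 1684 CPM in every library, and all other names lie below 352 CPM.

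Ordered by mean level over the 6 libraries, miR-200a-3p led at 4009 CPM and ranked 30th among all known miRNAs. MiR-429 followed at 2371 CPM and miR-200b-3p at 2230 CPM. The ranges of these last names overlapped, and miR-429 was the higher in 4 of 6 libraries, so their order is not resolved. The opposite strands miR-200b-5p (180 CPM) and miR-200a-5p (99.4 CPM) came next, with overlapping ranges but in that order in 6 of 6 libraries. Below them stood miR-200c-3p (48.3 CPM, rank 196) and miR-141-3p (20.4 CPM, rank 275), each apart from its neighbours in range. MiR-205-5p (6.37 CPM, rank 388) and miR-203a-3p (3.26 CPM, rank 472) were lowest. Their ranges overlapped, and miR-205-5p was the higher in 6 of 6 libraries.

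Of the 9 names, 0 passed the threshold between PRMT1 and control, an adjusted p of 0.05 by the quasi-likelihood test of edgeR. The same held for all 668 tested names (0% called), with 0.352 the lowest adjusted p among them. MiR-205-5p was the 1 of the 9 whose unadjusted p was under 0.05, as it was for 5.39% of all tested names. Log2 fold changes of PRMT1 over control lay above 0 for 4 members and below 0 for 5, beside 46.1% of all tested names below 0. Their median was -0.04, beside 0.04 over all tested names. DESeq2 called 0 of the 9 and 3 of the 668 names (0.449%; miR-378b, miR-378e and miR-548n, named after their values were seen), and limma-voom called 0 of the 9 and 0 of the 668.

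**Figure D2:**
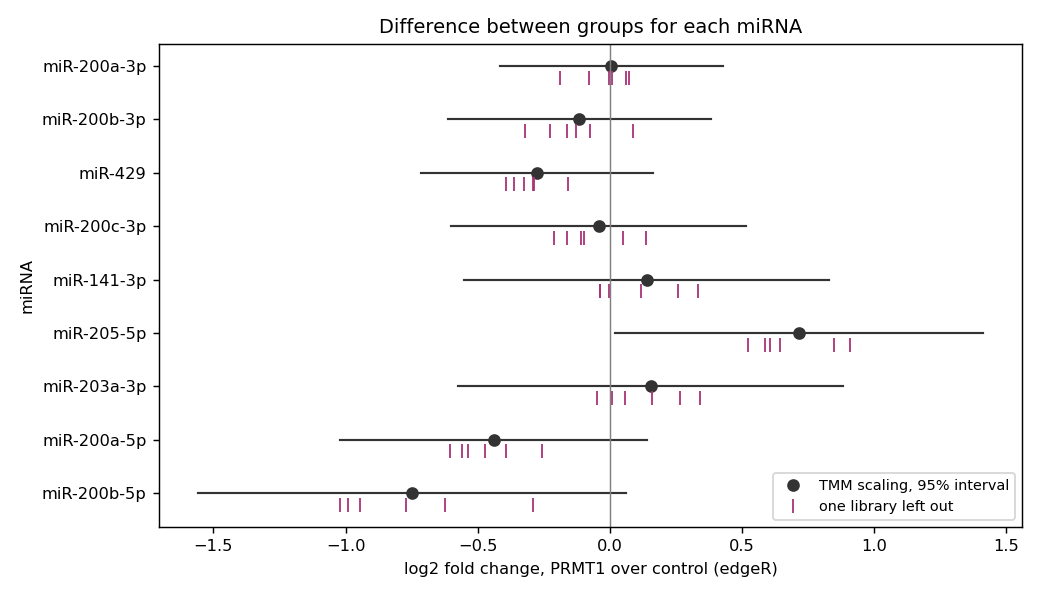
Log2 fold change of PRMT1 over control for each miRNA by edgeR (dots) with its 95% interval (lines), and the same value with each library left out in turn (short purple marks). The interval of miR-205-5p lies above 0 before adjustment, the other 8 include 0, and miR-200b-5p moves most when a library is left out, from -1.02 to -0.29.

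Each guide strand of the chromosome 1 cluster was 1.39 to 1.68 times as high in its highest library as in its lowest. MiR-200a-3p was at 4416, 4402 and 3184 CPM in control libraries 1 to 3 and 3752, 3863 and 4434 CPM in PRMT1 libraries 1 to 3. The groups overlapped, with control library 3 the lowest. The means were 4001 ± 707 and 4016 ± 366 CPM (SD, n = 3 each), a log2 fold change of 0.01 (SE 0.19, 95% interval -0.42 to 0.43, adjusted p = 0.991). Its sign turned with the scaling, since RLE factors gave -0.05.

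MiR-200b-3p was at 2200, 2982 and 1776 CPM in control and 2056, 2373 and 1992 CPM in PRMT1 libraries. Control libraries 2 and 3 were the highest and the lowest of all 6, so the PRMT1 libraries lay between them. Its log2 fold change was -0.12 (SE 0.22, 95% interval -0.61 to 0.38, adjusted p = 0.936). On omitting control library 2 it became 0.09.

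MiR-429 was at 2456, 2617 and 2718 CPM in control and 2381, 1684 and 2373 CPM in PRMT1 libraries. All 3 PRMT1 libraries lay below all 3 control libraries, PRMT1 library 2 farthest. The log2 fold change was -0.28 (SE 0.20, 95% interval -0.71 to 0.16, adjusted p = 0.789), and -0.16 without PRMT1 library 2. Groups did not overlap in this direction for 4.79% of tested names. Scaled by library size only, the groups of miR-429 overlapped, because control library 2 then stood at 1991 CPM.

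Added together, the 3 guide strands differed between groups by -0.10 on the log2 scale, less than the SD of 0.19 among control libraries, and the groups overlapped. It changed to -0.25 on omitting control library 3 and to -0.03 on omitting control library 2. No test was made of sums over members.

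The groups overlapped for both guide strands of the chromosome 12 cluster. MiR-200c-3p was at 45.1, 61.6 and 40.4 CPM in control and 48.7, 53.3 and 40.7 CPM in PRMT1 libraries, with overlapping groups. Its log2 fold change was -0.04 (SE 0.25, 95% interval -0.60 to 0.52, adjusted p = 0.983), and 0.05 when scaled by library size only. MiR-141-3p was at 22.8, 14.96 and 20.5 CPM in control and 24.1, 13.9 and 26.2 CPM in PRMT1 libraries. Its lowest values were those of control library 2 and PRMT1 library 2. Its log2 fold change was 0.14 (SE 0.31, 95% interval -0.55 to 0.83, adjusted p = 0.957). The sum of both differed by 0.02 on the log2 scale (SD 0.16 among control and 0.07 among PRMT1 libraries), and by -0.12 without control library 3.

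The balance of the clusters within a library does not depend on scaling. The chromosome 12 names made up 0.743%, 0.760% and 0.787% of the 5 guide strands in control libraries 1 to 3 and 0.881%, 0.841% and 0.755% in PRMT1 libraries 1 to 3. PRMT1 libraries 1 and 2 lay above all control libraries, and PRMT1 library 3 lay among them. The difference of the log2 ratio was 0.11, with an SD of 0.04 among control and 0.12 among PRMT1 libraries. It was 0.18 without PRMT1 library 3 and 0.06 without PRMT1 library 1.

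Pairs of names moved differently across libraries. MiR-200c-3p was a steady share of miR-200b-3p, the chromosome 1 name nearest to it in sequence, at 2.04% to 2.37% in all 6 libraries. MiR-141-3p was 0.340% to 0.645% of miR-200a-3p, its own nearest name, and was lowest in control library 2 and PRMT1 library 2. The ratio of miR-200c-3p to miR-141-3p, made from one cluster, was 4.12 in control library 2 and 3.83 in PRMT1 library 2, and 1.56 to 2.02 in the other 4 libraries. The ratio of miR-429 to miR-200b-3p was likewise lowest in those 2 libraries, at 0.877 and 0.710, against 1.12 to 1.53 in the others. So was that of miR-200a-3p to miR-200b-3p, at 1.48 and 1.63 against 1.79 to 2.23. These ratios were chosen after their values were seen. The part of reads shared between near-identical names in them was not tested.

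**Figure D3:**
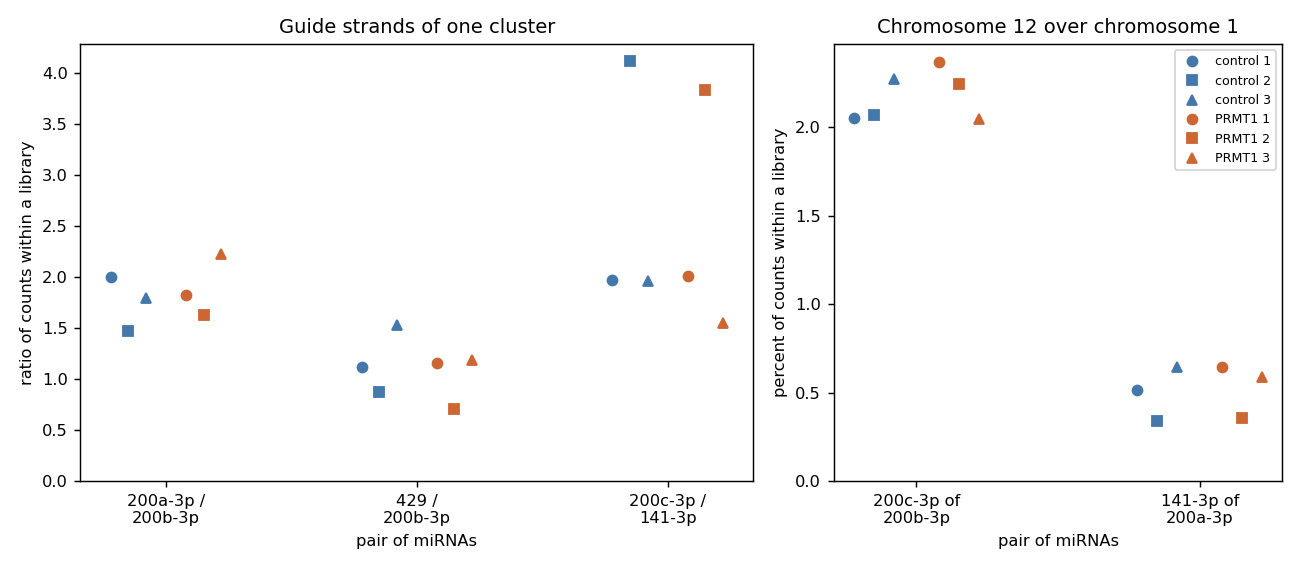
Ratios of counts within each library, which need no scaling: left, pairs of guide strands from one cluster; right, each chromosome 12 name as percent of the chromosome 1 name with the same seed and nearest sequence. The squares, control library 2 and PRMT1 library 2, are the highest for miR-200c-3p over miR-141-3p (4.12 and 3.83) and the lowest for miR-429 over miR-200b-3p (0.877 and 0.710), while miR-200c-3p stays at 2.04% to 2.37% of miR-200b-3p.

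The opposite strands of the hairpins, usually discarded when the guide strand is loaded, were also counted. The hairpins of miR-200b and miR-200c are shown to place both arms, which are in capitals (RefSeq, GRCh38.p14, plus strand, chr1:1167104-1167198 and chr12:6963699-6963766).
MIR200B: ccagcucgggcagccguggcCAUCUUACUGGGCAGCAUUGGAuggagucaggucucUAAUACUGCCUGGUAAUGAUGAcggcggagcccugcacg
MIR200C: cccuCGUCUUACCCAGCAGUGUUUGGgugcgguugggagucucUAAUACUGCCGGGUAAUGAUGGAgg
Over all libraries, the 5p arm made up 7.56% of both arms of miR-200b (95% exact binomial interval 7.44% to 7.68%) and 2.42% for miR-200a (2.37% to 2.47%). It made up 0.211% for miR-200c (0.0911% to 0.415%) and 0.493% for miR-141 (0.213% to 0.969%), from 8 counts each. These intervals cover counting error only and not the spread between libraries. The 5p arms of the chromosome 12 hairpins, with 0 to 3 counts in any library, were not tested between groups.

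MiR-200b-5p was at 352, 140.7 and 186 CPM in control and 128, 168 and 108 CPM in PRMT1 libraries. Control library 1 stood far above the rest, while control library 2 lay among the PRMT1 libraries. The means were 226 ± 111 and 135 ± 30.8 CPM (SD, n = 3 each), a log2 fold change of -0.75 (SE 0.36, 95% interval -1.56 to 0.06, adjusted p = 0.741). Without control library 1 the log2 fold change was -0.29.

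MiR-200a-5p was at 143, 102 and 97.8 CPM in control and 72.9, 93.3 and 86.8 CPM in PRMT1 libraries, so that all PRMT1 libraries lay below all control libraries. Its log2 fold change was -0.44 (SE 0.26, 95% interval -1.02 to 0.14, adjusted p = 0.747). On omitting control library 1 it became -0.26. Within libraries, miR-200a-5p was 3.24%, 2.32% and 3.07% of miR-200a-3p in control and 1.94%, 2.41% and 1.96% in PRMT1 libraries, with overlap. MiR-200b-5p was 16.0%, 4.72% and 10.5% of miR-200b-3p in control and 6.23%, 7.09% and 5.41% in PRMT1 libraries, also with overlap. Both 5p arms were thus highest relative to their 3p arms in control libraries 1 and 3.

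**Figure D4:**
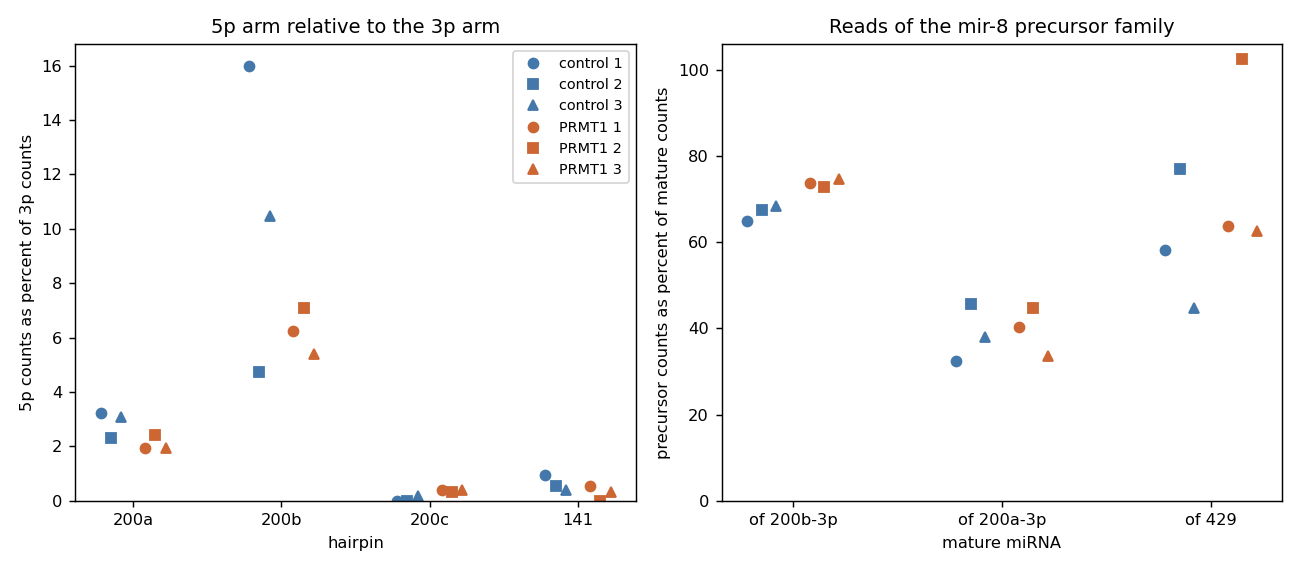
Left, counts of the 5p arm as percent of the 3p arm for 4 hairpins by library; right, counts of the deposited mir-8 precursor family as percent of 3 mature guide strands. The 5p arm of miR-200b ranges from 4.72% to 16.0%, those of miR-200c and miR-141 lie below 1%, and the precursor counts lie between 64.9% and 74.7% of miR-200b-3p.

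MiR-205-5p was the member with the largest positive fold change, at a low level. It had 83, 56 and 50 counts in control and 135, 106 and 75 counts in PRMT1 libraries, or 6.09, 4.48 and 3.89 CPM against 8.78, 8.72 and 6.27 CPM. The groups did not overlap, although control library 1 and PRMT1 library 3 lay close, with exact Poisson 95% intervals of 66.1 to 103 and 59.0 to 94.0 counts. The means were 4.82 ± 1.14 and 7.92 ± 1.43 CPM (SD, n = 3 each), a log2 fold change of 0.72 (SE 0.31, 95% interval 0.02 to 1.41, adjusted p = 0.741). Groups did not overlap in this direction for 5.39% of tested names. Scaled by library size only, control library 1 stood at 6.70 CPM and PRMT1 library 3 at 6.18 CPM, so the groups overlapped. The log2 fold change stayed above 0 in each of 13 alternatives, from 0.52 without control library 3 to 0.91 without control library 1.

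MiR-203a-3p had 37, 49 and 34 counts in control and 64, 40 and 34 in PRMT1 libraries, or 2.72, 3.92 and 2.64 CPM against 4.16, 3.29 and 2.84 CPM. The groups overlapped, with PRMT1 library 1 the highest. The log2 fold change was 0.15 (SE 0.32, 95% interval -0.57 to 0.88, adjusted p = 0.953), and -0.05 without PRMT1 library 1. The opposite arms miR-205-3p and miR-203a-5p had at most 3 and 1 counts in a library, and miR-203b-3p and miR-203b-5p, from the minus strand of the same locus, at most 1 and 2.

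Counted over the 9 names, the groups did not overlap for 3 (miR-429, miR-200a-5p and miR-205-5p), beside 10.2% of all tested names. The number was 2 with RLE scaling, beside 10.3% of all tested names. It was 1 as CPM of all counts, other RNA classes included (miR-200a-5p), and 0 with library size only, beside 8.38% of all tested names in both cases. It was 5 without control library 2, where miR-203a-3p and miR-200b-5p joined, but groups of 2 and 3 libraries overlap less often by construction, and 27.7% of all tested names were then without overlap. Control library 2 stood apart from the others in composition, since miR-21-5p took 66.0% of its known miRNA counts against 49.4% to 59.1% elsewhere, and with a TMM factor of 0.761 against 0.986 to 1.11. Its part in these counts beyond the values given was not tested.

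Reads that the deposited tables assign to precursor families of the Rfam database form rows apart from the mature names. The mir-8 family, which is the Rfam name for the miR-200 family, held 19467, 25156 and 15607 counts in control and 23306, 20997 and 17789 in PRMT1 libraries. As CPM of all counts the means were 816 ± 177 and 842 ± 116 (SD, n = 3 each), with a two-sided exact permutation p of 0.9, where 3 against 3 libraries cannot give less than 0.1. Set against miR-200b-3p they came to 64.9%, 67.5% and 68.3% in control libraries 1 to 3, while PRMT1 libraries 1 to 3 had 73.8%, 72.8% and 74.7%, without overlap. Against miR-200a-3p they were 32.4% to 45.7% and against miR-429 44.7% to 103%, with overlapping groups. Against all mature arms of the miR-200 family added together, the groups overlapped too. That share was 14.8%, 19.5% and 15.1% in control libraries 1 to 3 and 17.9%, 20.9% and 16.4% in PRMT1 libraries 1 to 3. Of 30 sums and ratios compared by library, the groups did not overlap for 3, beside 10.2% of all tested names. These 3 are named here after their values were seen and were not tested. They were the mir-8 family as percent of miR-200b-3p, miR-200c-5p as percent of miR-200c-3p, and the sum of the 3 names with the seed of miR-200b-3p. The share of miR-200c-5p rests on 8 counts in all. The sum by seed was at 4701, 5661 and 4535 CPM in control libraries 1 to 3 and at 4485, 4110 and 4407 CPM in PRMT1 libraries 1 to 3. As a share of known miRNA counts, without scaling, it was 0.431% to 0.517% in control and 0.420% to 0.478% in PRMT1 libraries, so the groups overlapped. The family mir-205 held 2 to 12 counts and mir-203 0 to 43, the 43 in control library 2 (exact permutation p of 0.2 and 0.7, adjusted 0.6 and 0.9 over the 3 families).

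Other miRNAs known from epithelial cells were compared as a list, of which 12 of 12 were tested and 0 passed in either direction, with a median log2 fold change of -0.04. Its summed level was 12325 to 14566 CPM in control and 11572 to 12851 CPM in PRMT1 libraries. Its most abundant names were miR-34a-5p, which p53 induces (log2 -0.03, SE 0.17), miR-182-5p (log2 -0.33, SE 0.22) and miR-183-5p (log2 -0.19, SE 0.18). Among miRNAs linked to mesenchymal cells or EMT, 11 of 13 were tested and 0 passed, with a median of -0.01. The most abundant were miR-21-5p (log2 -0.08, SE 0.25), miR-222-3p (log2 0.07, SE 0.17) and miR-221-3p (log2 -0.22, SE 0.23). Groups did not overlap for 1 tested name in each of these lists, beside 10.2% of all tested names. Named after their values were seen, they were miR-449a, lower with PRMT1 (log2 -0.57, SE 0.24, adjusted p = 0.741), and miR-145-5p, higher. MiR-145-5p had a mean of only 1.12 CPM (log2 0.85, SE 0.40, adjusted p = 0.741). Of 13 markers of blood, endothelium, muscle, liver and nerve cells, 7 were tested and 0 passed, with a median of 0.19 (5 above 0 and 2 below). The sum of the list was 1761 to 2103 CPM in control and 1710 to 2372 CPM in PRMT1 libraries, mostly miR-126-3p at 1831 ± 175 and 1972 ± 345 CPM (SD, n = 3 each). Among its blood markers, miR-144-3p and miR-142-5p had at most 3 counts in any library. MiR-486-5p, the blood marker of highest level in the list, was at 122, 59.8 and 68.7 CPM in control and 56.8, 80.6 and 47.8 CPM in PRMT1 libraries. Its groups overlapped, and its log2 fold change lay below 0 at -0.43 (SE 0.33, adjusted p = 0.789). Some others, named after their values were seen, had higher mean values with PRMT1. MiR-150-5p, known from lymphocytes, was at 5.36, 6.80 and 9.02 CPM in control and 9.04, 9.62 and 17.9 CPM in PRMT1 libraries. Its groups did not overlap, though control library 3 and PRMT1 library 1 lay close, and its log2 fold change was 0.79 (SE 0.36, adjusted p = 0.741). MiR-451a, known from red blood cells, was at 4.11, 8.56 and 4.20 CPM in control and 6.64, 8.63 and 19.5 CPM in PRMT1 libraries, with overlap (log2 1.04, SE 0.47, adjusted p = 0.741). PRMT1 library 3 was the highest for both. Their part in the values of the 9 members was not tested. After miR-126-3p, the next in level in this list were miR-486-5p, given above, and miR-124-3p. MiR-124-3p was at 15.1, 11.9 and 13.8 CPM in control and 12.5, 15.3 and 42.0 CPM in PRMT1 libraries. Its groups overlapped, with PRMT1 library 3 far above the rest (log2 0.77, SE 0.44, adjusted p = 0.745).

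The known miRNAs whose profile over the 6 libraries was most like that of the summed chromosome 1 cluster were miR-34a-5p, miR-532-5p and miR-100-5p. Likeness was the root mean square difference of centred log2 levels, 0.06, 0.06 and 0.08 for these, beside a median of 0.31 over 325 names of at least 10 CPM. For miR-205-5p they were miR-486-3p, miR-224-3p and miR-25-5p, at 0.24, 0.24 and 0.27 beside a median of 0.53. Log2 fold changes of these last names were 0.47 (SE 0.26), 0.66 (SE 0.31) and 0.46 (SE 0.28), and 0 of them passed the threshold. They were chosen for likeness over libraries of both groups, so fold changes of the same sign as that of miR-205-5p follow from the choice.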

How the data were processed

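Small RNA of 6 BEAS-2B libraries was sequenced, filtered and analysed by BGI per the series' design text. The submitters' processing notes name HISAT, Bowtie2, RSEM and GRCh37.p13. The role of each, the use of strand and the treatment of reads that fit several names are not given in the sources used here. Messenger RNA is what the protocol in the labels describes. The deposited counts are whole reads per feature, not normalised, and absent names were taken as 0. The authors' TPM values equalled the CPM of the table total to within 0.005 and served only for that check. A count of 0 allows up to 3 counts, which is 0.195 to 0.251 CPM. Such limits, and intervals of counts, cover counting error only.

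Known mature names were filtered with filterByExpr, scaled with TMM and tested with edgeR 4.0.16, quasi-likelihood test with robust fitting (R 4.3.3), 3 libraries against 3, without a block, with Benjamini-Hochberg adjustment over 668 names. SEs are the fold change over the root of F. The test was tried on simulated data. Sums and ratios over members were not tested. Alternatives used RLE or no scaling, DESeq2 1.42.0, limma-voom (limma 3.58.1), other filters, a block, omission of miR-21-5p and omission of each library. Overlap of groups by setting was an alternative chosen after seeing the data.

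Members, lists and rules were chosen with earlier results of these data known. Named were the 9 members, the other arms of their hairpins, the 3 most abundant names of each list and the 3 names of most similar profile. Positions are on GRCh38, not the submitters' build.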

Additional observations from a re-analysis of the deposited data

How the results depend on the processing

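With edgeR, 0 known miRNAs passed the threshold (36 at an unadjusted p under 0.05). The count was 9 without a filter, 3 with DESeq2 and 1 with the replicate block, and 0 to 1 with each library left out; 0 of the 9 members were among them in any setting, and the cause was not tested. Under that block, with replicate numbers from the labels, no log2 fold change of a member changed sign. Deviations of same-numbered libraries correlated at -0.08, 0.20 and -0.11, so the numbers were not taken to pair libraries. Control 2 and PRMT1 2 were the 1 number of 3 where both libraries correlated best with each other. Libraries of unlike number did so too, control 1 with PRMT1 3 at 0.24 and control 3 with PRMT1 1 at 0.18.

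Signs turned as follows. MiR-200a-3p was at -0.045 with RLE scaling or DESeq2, -0.012 without a filter and -0.016 without miR-21-5p, miR-200c-3p at 0.051 with library size only, and the summed chromosome 12 cluster at -0.029 with RLE scaling against 0.016 with TMM. With each library left out, log2 fold changes ran from -0.19 to 0.072 for miR-200a-3p, -0.32 to 0.086 for miR-200b-3p, -0.21 to 0.14 for miR-200c-3p, -0.039 to 0.33 for miR-141-3p and -0.049 to 0.34 for miR-203a-3p. MiR-429, miR-205-5p, miR-200a-5p and miR-200b-5p kept their sign in all alternatives run, though the stricter filter left no value for miR-205-5p or miR-203a-3p. With each library left out, the summed chromosome 1 cluster ran from -0.25 to -0.027, the chromosome 12 cluster from -0.12 to 0.082 and their log2 ratio from 0.063 to 0.18; with library size only the chromosome 12 cluster was at 0.084. Also with each library left out, the mir-8 family difference ran from -56.7 to 119.6 CPM of all counts, mir-205 from 0.052 to 0.22 and mir-203 from -0.80 to 0.016. Members without overlap of groups numbered 3, beside 10.2% of all tested names, or 2 with RLE scaling, beside 10.3%. They numbered 0 with library size only and 1 as CPM of all counts, beside 8.38% of all tested names in both cases. With a library left out they numbered 2 to 5, where 14.1% to 27.7% of all tested names were without overlap. Intervals of the low names miR-205-5p and miR-203a-3p limit what depth allows.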
